A study of Mus musculus with 8 samples.

Results

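Peaks in pseudogenes were called peaks on the 19 autosomes whose midpoint lay in the span of a RefSeq gene of biotype pseudogene or transcribed pseudogene and in no protein-coding or long non-coding RNA gene. They numbered 2233 of the 978429 called peaks in 7 lists. The peaks come from crosslinking and immunoprecipitation (CLIP) of Zmat3, in which UV light ties a protein to the RNA it touches and the RNA is recovered with an antibody, here against Zmat3. All lines were mouse embryonic fibroblasts carrying E1A and HrasG12V. The 3 control lines had the genotype Cas9+;E1A;HrasG12V and each a different negative-control guide RNA (EV, SPA or ACOCA), with 3 days of puromycin and 10 further days of culture. The single Zmat3-/-;E1A;HrasG12V line had no guide RNA and was made from knockout fibroblasts of a separate source, so that loss of Zmat3 and line of origin cannot be told apart. Each line gave 1 immunoprecipitate (IP) and 1 input and RNA was taken from gel positions of 35 to 110 kDa.

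Pseudogenes are copies of genes that have lost their coding function. Many are retrocopies, made when a messenger RNA was copied back into the genome, and abundant messages such as those of ribosomal proteins have left many of them. Others are genes disrupted in the reference strain or gene-like loci that are still transcribed and spliced. Zmat3 is a zinc finger RNA-binding protein induced by p53. Because a retrocopy can be almost identical to its parent, a sequencing read from the parent message can be placed on the pseudogene, so every pseudogene value here is uncertain to that extent. The sources used here do not say how the authors placed such reads.

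Each peak carried the authors' log2 fold of the IP over a comparator and a −log10 p-value. The controls were compared with input and with the knockout IP, and the knockout with input. Controls 1 to 3 had 286, 354 and 312 pseudogene peaks and the knockout 329, out of 127149, 149947, 119940 and 164219 autosomal peaks over input. Their share was 0.240% ± 0.018 (SD, n = 3) in the controls and 0.200% in the knockout. All 3 controls lay above the knockout, at 0.225%, 0.236% and 0.260%, but 1 library against 3 cannot give a p below 0.25, which is the value of the two-sided exact permutation test. Without the 3 loci Ppp4r1l-ps, Mx2 and Oas1b, described below, the shares were 0.184%, 0.217% and 0.200% in the controls and 0.192% in the knockout, which then lay above control 1. The 3 lists over the knockout IP held the same pseudogene peaks and share 1 knockout library. The lists hold no read counts, so depth is unknown. Of 12 fibroblast markers, 5 to 7 held peaks in each IP, among them Fn1, Vim and Col5a1, whereas Col1a1, Col1a2, Thy1, Postn and S100a4 held none in any IP. Of 5 epithelial markers 1 to 3 held peaks, of 5 blood markers only Cd68, and of 3 endothelial markers 0.

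The 2233 calls fell in 286 pseudogene loci, 5 of which were overlapping pairs or groups of pseudogenes. The other 281 were 3.02% of the 9319 annotated autosomal pseudogenes. Of the 286 loci, 39 were transcribed pseudogenes and 247 were not so marked. Joining overlapping peaks of all lists gave 728 sites, and 174 loci held only 1 site. Within each of the 286 loci all peaks lay on 1 strand. Peaks in all 4 IPs were found in 83 loci, and 40 loci had peaks in the knockout alone. A further 10 loci had a peak in every control and none in the knockout, among them H2af-ps2, Rps13-ps1, Pisd-ps2 and Dynlt1-ps1 (the last 3 named after their values were seen). At the level of positions, 96 sites were called in all 3 controls, and 75 of these also in the knockout. These counts of loci and sites were not made for all autosomal peaks. From 41.0% to 52.4% of the pseudogene peaks of a control overlapped a called peak of any one other IP, against 26.9% to 33.8% of all autosomal peaks.

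Over input, pseudogene peaks were low. Their median log2 fold was 0.64, 0.25 and 0.15 in controls 1 to 3 and -0.35 in the knockout. The medians of all autosomal called peaks were higher in every list, at 0.90, 0.60, 0.60 and 0.23. Pseudogene peaks therefore lay 0.26, 0.35 and 0.45 below the autosomal median in the controls (difference -0.36 ± 0.09, SD, n = 3) and 0.58 below it in the knockout (difference -0.58). The difference between controls and knockout had p = 0.25 in the two-sided exact permutation test, the smallest possible. The order turned when peaks of −log10 p-value 0 were left out, with a difference of -0.22 in the controls and one of -0.10 for the knockout. The share of pseudogene peaks above their input was 74.5%, 64.1% and 57.4% in the controls and 40.4% in the knockout. Among all autosomal peaks it was 82.8%, 80.5% and 74.8% in the controls and 59.0% in the knockout, so it was lower there too.

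**Figure D1:**
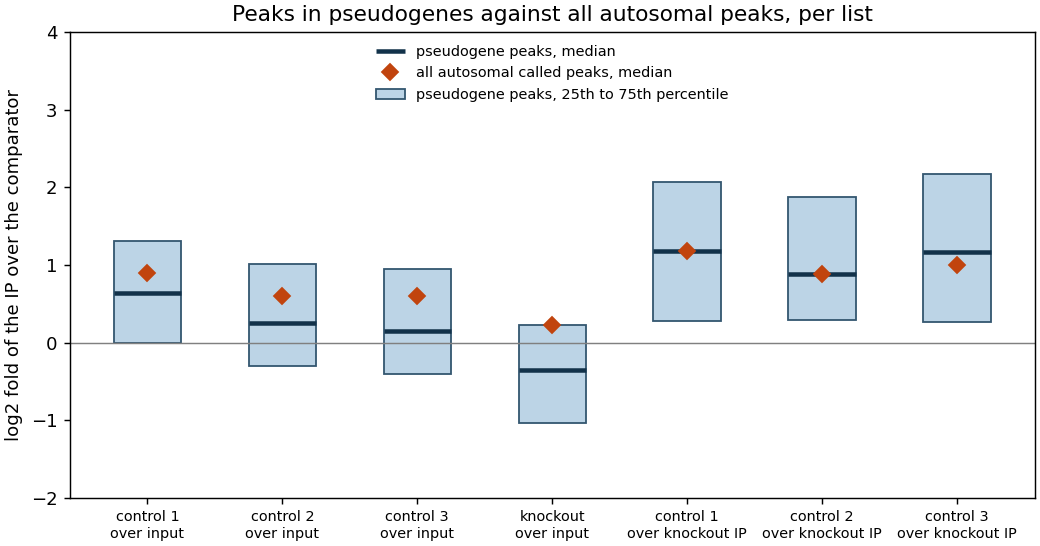
Authors' log2 fold (y axis) of pseudogene peaks in each of the 7 lists (x axis), with boxes from the 25th to the 75th percentile, dark lines at the median and diamonds at the median of all autosomal called peaks. Over input the diamonds lie above the pseudogene medians in all 4 lists, whereas over the knockout IP the medians are equal in controls 1 and 2 and higher for pseudogenes in control 3 (1.17 against 1.00).

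Over the knockout IP this gap was not seen. Pseudogene medians were 1.18, 0.88 and 1.17 in controls 1 to 3, against 1.18, 0.88 and 1.00 for all autosomal peaks, a difference of 0.06 ± 0.10 (SD, n = 3). The sign of this small difference rested on a few large loci, since it was -0.24 without Ppp4r1l-ps, Mx2 and Oas1b. Transcribed pseudogenes had higher values than the others. Their median over the knockout IP was 1.78, 1.62 and 1.90 in controls 1 to 3, against 0.60, 0.71 and 0.58 in the other pseudogenes. Over input the gap between both kinds was 0.61 ± 0.04 (SD, n = 3) in the controls, and the cells without Zmat3 had a similar 0.58. Controls 1 and 2 had exactly the gap of the knockout, and control 3 had 0.66. Because many folds fell on shared values, the small SD and this match need not mean close agreement. Transcribed pseudogenes held 34.3%, 23.2% and 37.2% of the pseudogene peaks of controls 1 to 3 and 17.3% of those of the knockout. Much of this lay in Ppp4r1l-ps, Mx2 and Oas1b, which held 52 of the 98, 29 of the 82 and 72 of the 116 transcribed pseudogene peaks of controls 1 to 3, and 14 of the 57 of the knockout. Without them the shares were 19.7%, 16.3% and 18.3%, against 13.7% in the knockout. The gap in median between transcribed and other pseudogenes was then 0.74 ± 0.23 (SD, n = 3) over the knockout IP. Over input it was 0.31 ± 0.14 (SD, n = 3) in the controls and 0.00 in the knockout.

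Enrichment meant that both the log2 fold and the −log10 p-value were 3 or more. Over input no pseudogene peak was enriched in any list, against 1.03%, 1.06%, 0.497% and 0.317% of all autosomal peaks in controls 1 to 3 and the knockout. At these numbers of peaks a count of 0 allows shares of up to 1.05%, 0.847%, 0.962% and 0.912%, so a share equal to the background would not be detectable in controls 1 and 3 or in the knockout. These limits cover counting error only. Over the knockout IP, 5, 4 and 8 pseudogene peaks were enriched in controls 1 to 3, or 1.75%, 1.13% and 2.56%. The background of all autosomal peaks was 0.605%, 1.09% and 0.634%, so that the share in control 2 was near it. Of the 8 in control 3, 4 lay in Mx2 and Oas1b. No called knockout peak overlapped any of the 17 enriched peaks, which lay in 9 pseudogenes, 10 of them in transcribed ones. Their selection by fold over the knockout IP favours this, and the share for all enriched autosomal peaks was not computed. Only 10 of the 17 were also above input. Reproducible regions, meaning peaks enriched over both comparators in at least 2 controls, numbered 0 in pseudogenes, which follows from the lack of peaks enriched over input.

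H2af-ps2, a transcribed pseudogene of the core histone H2A family on chromosome 13, held the highest value over the knockout IP. Its single site (chromosome 13, 51202910–51203002, minus strand) had log2 folds over the knockout IP of 5.94, 4.16 and 5.28 in controls 1 to 3 (5.13 ± 0.90, SD, n = 3). The −log10 p-values were 29.3, 7.66 and 18.0, and it was the one site enriched over the knockout IP in all 3 controls. Over input the same site had log2 folds of 0.85, -0.13 and -0.61, and no knockout peak was called there. The site was thus far above the knockout IP in every control while its control IPs lay on both sides of input. Its symbol shows no single parent, and replication-dependent histone genes are near-identical copies that can share reads. The 21 protein-coding H2A genes matched by symbol (a list made after the values were seen) had median log2 folds over the knockout IP of 1.91, 0.87 and 1.50, and their highest peaks reached 3.34, 2.30 and 2.21. The list was not limited to near-identical copies. It also held the H2A variants H2ax, H2az1 and H2az2, and the 2.30 of control 2 lay in H2az2. In the knockout 13 of the 21 had called peaks.

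Atp10d, a phospholipid-transporting ATPase gene annotated as a transcribed pseudogene in this genome, held the site whose lowest value over input across the 3 controls was highest. The site (chromosome 5, 72288000–72288091, plus strand) reached log2 folds over input of 3.31, 3.48 and 2.92 in the 3 controls (3.24 ± 0.29, SD, n = 3). Over the knockout IP they were 3.60, 3.76 and 3.90 (3.75 ± 0.15, SD, n = 3), and no knockout peak was called there. Both comparisons were thus high in all 3 controls. The values of control 1 recurred elsewhere with the same −log10 p-values, 3.31 over input in Gm3257 and 3.60 over the knockout IP in Gm13456 and Gm15459. The folds thus fell on shared steps, and a small SD need not mean close agreement. The −log10 p-values over input, 1.87, 2.49 and 1.53, stayed under the threshold, and over the knockout IP only the 3.13 of control 3 passed it. Over its whole span of 95443 nt, Atp10d had 7, 6 and 4 control peaks and 3 knockout peaks, with median log2 folds over the knockout IP of 2.18, 2.09 and 1.88.

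Other sites stood high over the knockout IP and near or below input. Gm15459 (chromosome 5, 5783410–5783485, minus strand) reached 3.60, 4.30 and 3.75 against the knockout IP, while its log2 folds against input were -0.14, 0.32 and -0.23. A neighbouring Gm15459 site (chromosome 5, 5783561–5783602) was enriched over the knockout IP in controls 2 and 3. In Gm8730 (chromosome 8, 102865565–102865654) the values over the knockout IP were 4.41, 3.30 and 3.58, and against input -0.58, -1.84 and -1.49. These control IPs lay below their inputs and far above the knockout IP. Gm13456 (chromosome 2, 40556431–40556503) had 3.60, 2.62 and 3.17 against the knockout IP, with 1.31, 0.02 and -0.40 against input. None of these sites had a knockout peak. Gm10036, named after its values were seen, was enriched over the knockout IP in control 3 alone (log2 fold 3.39).

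**Figure D2:**
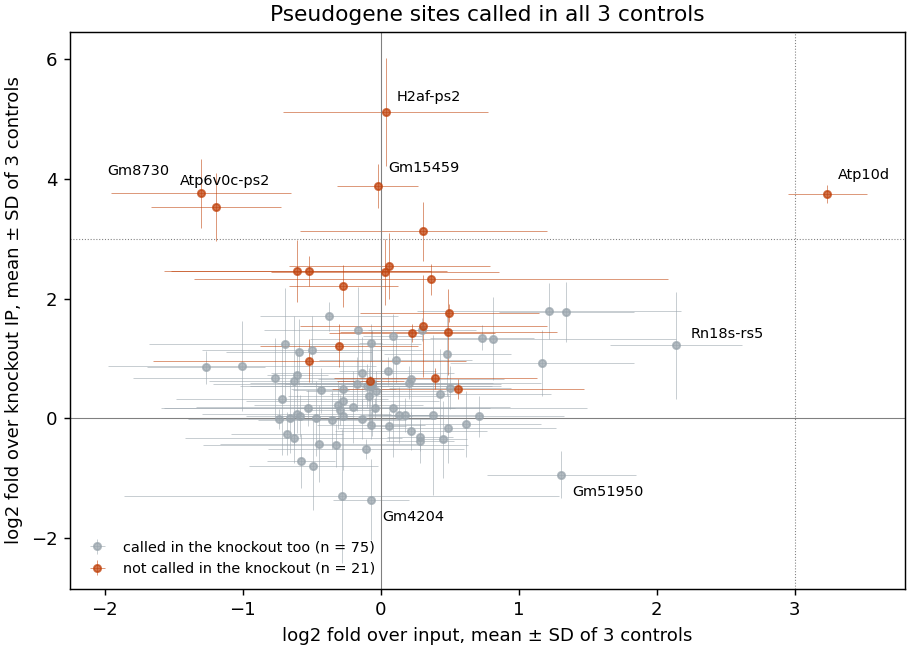
The 96 pseudogene sites called in all 3 controls, by log2 fold over input (x axis) and over the knockout IP (y axis), as mean ± SD of 3 controls; dotted lines mark the log2 fold of 3. H2af-ps2, Gm15459, Gm8730 and Atp6v0c-ps2 lie above 3 on the y axis and near or left of 0 on the x axis, and Atp10d lies above 3 on both; of the 21 sites without a knockout peak all lie above 0 on the y axis.

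The 21 control sites without a knockout peak had a median log2 fold of 2.32 against the knockout IP and of 0.04 against input. The 75 sites shared with the knockout had medians of 0.32 and -0.09. Because a knockout peak was called at the latter and not at the former, the difference over the knockout IP follows in part from the grouping. The sources used here do not say how a position without knockout reads entered the authors' fold. Across controls the SD at a site had a median of 0.61 for folds against input and 0.40 for those against the knockout IP.

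Sites with low values over the knockout IP were also shared by all controls. Gm51950, a locus of 161 nt on chromosome 11, showed log2 folds over input of 1.12, 0.89 and 1.92 in the controls. In the knockout it had 2.82, the highest value there among pseudogene peaks. Against the knockout IP it had -0.91, -0.57 and -1.34. The site thus had its highest value in the cells without Zmat3, with a −log10 p-value of 1.66 there. Gm4204 had a site at -1.83, -1.65 and -0.59 over the knockout IP. Gm12009, Gm12635, Gm5446 and Gm21927 were below the knockout IP in all 3 controls, with site values from -1.62 to -0.12.

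A few other pseudogenes, among them relatives of structural RNAs, were above input in all 3 controls. Rn18s-rs5, related by its symbol to the RNA of the small ribosomal subunit, had a site (chromosome 17, 39847864–39847955) where the 3 controls had log2 folds over input of 2.41, 2.43 and 1.59 and the knockout 1.91. Over input the control and knockout values overlapped, and the site was recovered in the cells without Zmat3 too. Its −log10 p-values over input reached the cap of 400 in control 1. Against the knockout IP the controls had 2.08, 1.27 and 0.31 there, all above 0. A second Rn18s-rs5 site (39847538–39847631) had 0.51, -0.56 and -0.44 against the knockout IP. Rnu3b-ps1 is named for a small nucleolar RNA that takes part in ribosomal RNA processing. Its site (chromosome 19, 4078453–4078514) had log2 folds over input of 1.37, 1.82 and 0.84 in the controls, where the knockout had -0.22. Against the knockout IP the controls had 1.87, 2.23 and 1.25. All 3 controls were above the knockout here, and the site was under the log2 fold of 3 in every list. The genes Rnu3b1 to Rnu3b4 on chromosome 11 had medians over input from 0.70 to 4.12 in the controls and from 0.54 to 1.45 in the knockout. The highest value, 4.12 in control 1, was the same for Rnu3b2 and Rnu3b4. Gm3257 (chromosome 7) held 13 sites, with medians over input of 2.81, 1.60 and 1.39 in the controls and 0.65 in the knockout, but of 0.60, -0.12 and 0.21 against the knockout IP.

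Ppp4r1l-ps was the pseudogene with most sites, 92 in a span of 80220 nt (chromosome 2, 173579320–173659539), all on the minus strand. It resembles by name Ppp4r1, a regulatory subunit of protein phosphatase 4. The 3 controls had 36, 29 and 34 peaks there, and the knockout 10. That was 12.6%, 8.19% and 10.9% of all pseudogene peaks of the controls and 3.04% of those of the knockout. Its median log2 fold over the knockout IP was 2.18, 1.88 and 2.17 (2.08 ± 0.17, SD, n = 3), well above the median of all autosomal peaks in each list. In controls 2 and 3 these medians were each list's most frequent value, held by 12.7% and 12.6% of autosomal peaks. The medians of all pseudogene peaks had the same SD of 0.17, so it does not measure agreement at this locus alone. Over input the medians of Ppp4r1l-ps were 0.90, 1.02 and 0.50, against 0.23 in the knockout. None of its peaks was enriched, beside backgrounds of 0.497% to 1.06% over input and 0.605% to 1.09% over the knockout IP that are too low to be seen in so few peaks. Ppp4r1 and the neighbouring gene Rab22a, a vesicle-transport GTPase, did not have fewer knockout peaks. Ppp4r1 had 42, 43 and 37 peaks in the controls and 54 in the knockout, with medians over the knockout IP of 1.10, 1.03 and 1.00, and Rab22a had 22, 20 and 23 against 27. These 2 genes were looked up after the values of Ppp4r1l-ps were seen. In peak lists alone, more bound RNA and more RNA of a locus per cell cannot be told apart.

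**Figure D3:**
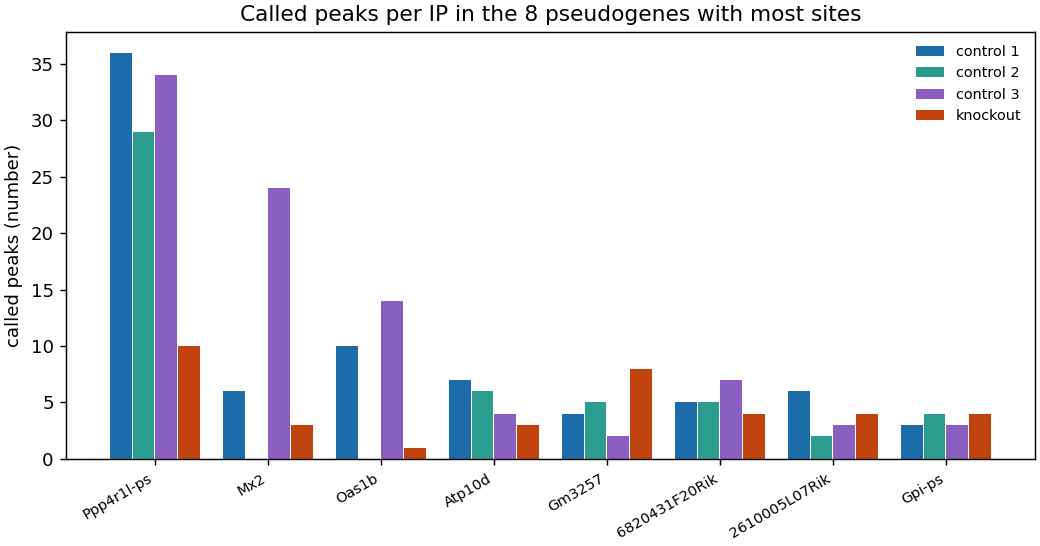
Number of called peaks (y axis) in each IP for the 8 pseudogenes with most sites (x axis). Ppp4r1l-ps has 29 to 36 peaks in the controls and 10 in the knockout, while Mx2 and Oas1b have none in control 2 and most in control 3.

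Mx2, a GTPase, and Oas1b, an oligoadenylate synthetase, are interferon-induced antiviral genes annotated as transcribed pseudogenes in this genome. Their peaks varied widely among the controls, and the knockout lay within that range. Mx2 had 6, 0 and 24 peaks in the 3 controls, and 3 in the knockout. Oas1b had 10, 0 and 14 peaks, and 1 in the knockout. Control 3 was thus high, control 2 without a peak and the knockout low. In control 3, 3 Mx2 peaks were enriched over the knockout IP, the highest with a log2 fold of 4.28 (1.71 over input). An Oas1b peak of control 3 (chromosome 5, 120822950–120823016) stood at 3.17 against the knockout IP and 3.18 against input, with a −log10 p-value over input of 2.01, under the threshold.

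The same order of libraries was seen in interferon-induced protein-coding genes, a list of 20 chosen after these values were seen. The 3 controls held 122, 65 and 231 of their peaks, and the knockout 77. Rsad2, an antiviral enzyme, had 6, 0, 15 and 0 peaks. Oas3, a relative of Oas1b, had 6, 0, 14 and 0. The list's enriched peaks over the knockout IP numbered 1, 1 and 21, and its medians 1.92, 0.88 and 2.39. Ifit1 and Ifit3 had no peak in any IP. The part of this difference among lines in the Mx2 and Oas1b values was not tested.

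**Figure D4:**
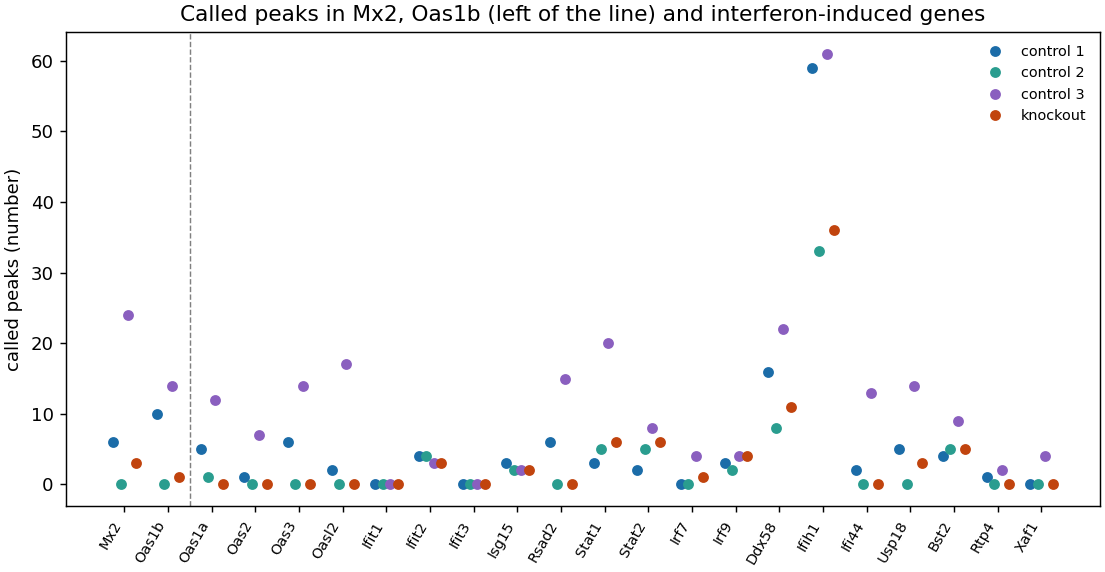
Number of called peaks (y axis) in each IP for Mx2 and Oas1b (left of the dashed line) and 20 interferon-induced protein-coding genes (x axis). Control 3 has the most peaks in Mx2, Oas1b, Rsad2 and Oas3, and control 2 has none in these 4 genes.

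A protein-coding parent was shown by the symbol or a synonym for 70 pseudogenes, with 64 parents. Both partners had peaks in 39, 52 and 43 pairs in controls 1 to 3 and in 46 in the knockout. Over input the pseudogene's median was below the parent's in 24, 36 and 31 of these pairs, and the median difference was -0.29, -0.55 and -0.57 (-0.47 ± 0.15, SD, n = 3). In the knockout 22 pairs were lower and 22 higher, with a median difference of 0.00 (two-sided exact permutation test, p = 0.25, the smallest possible). Over the knockout IP the median difference was -0.32, -0.34 and -0.26 in the controls (-0.31 ± 0.04, SD, n = 3). Enriched over input were 2, 8 and 2 peaks of parents in the controls and 2 in the knockout (0.687%, 1.51%, 0.575% and 0.495% of their peaks). Of the 60, 89, 69 and 86 peaks of these pseudogenes 0 were enriched, too few peaks to be set against such shares. Over the knockout IP, 3 of 60, 1 of 89 and 0 of 69 pseudogene peaks were enriched in controls 1 to 3. The shares of parent peaks there were 0.692%, 2.07% and 0.862%. Parent spans include introns, where a retrocopy has no counterpart, so that not all of these peaks compare like with like.

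**Figure D5:**
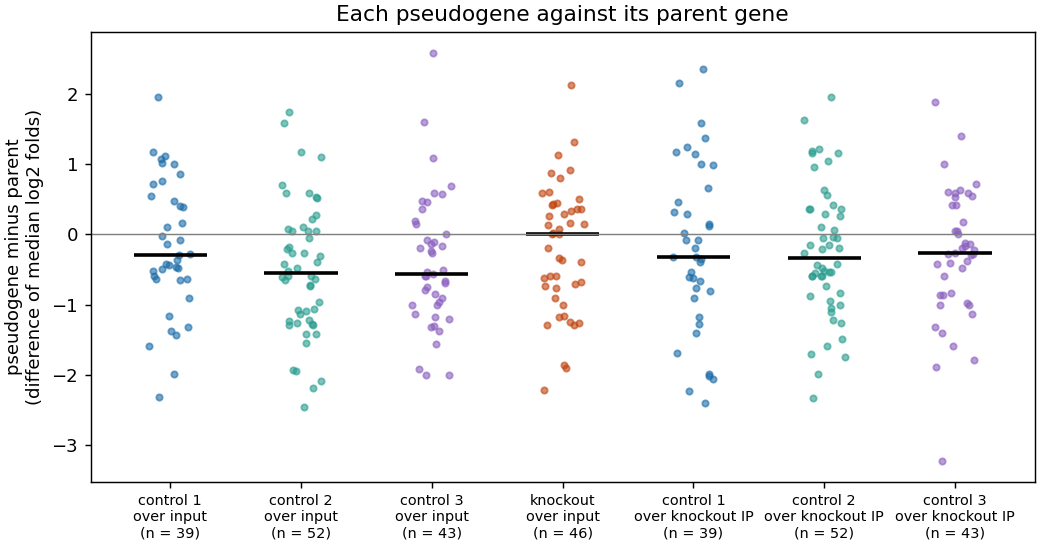
Difference between the median log2 fold of a pseudogene and that of its parent (y axis) in each of the 7 lists (x axis); each point is 1 pair and black lines mark the medians. The medians lie between -0.57 and -0.26 in the 6 control lists and at 0.00 in the knockout, and single pairs lie on both sides of 0 in every list.

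Ribosomal protein pseudogenes were the largest family with a parent, with 22 pseudogenes and 31 sites. Their peaks had medians over input of 0.64, 0.02 and 0.01 in the controls, -0.92 in the knockout, and of 0.96, 0.54 and 0.63 over the knockout IP. Of their 20 peaks over the knockout IP in control 1, 2 were enriched, against 0.605% of autosomal peaks, and 0 of 24 in each of controls 2 and 3. The 2 were adjacent pieces of 34 nt in Rps10-ps2 with the same log2 fold of 3.06. Translation factor pseudogenes (3), led by Eef2-ps2 and Tpt1-ps3, had medians over the knockout IP of 0.34, 0.65 and 0.51. Hspd1-ps3, a copy of the mitochondrial chaperonin gene, had 0.20, -0.29 and 0.34, against 1.60, 0.98 and 1.32 in Hspd1. Glycolysis was represented by Gpi-ps and Pgam1-ps2, the cytoskeleton by Tpm3-rs7, mitochondrial energy by 4 pseudogenes including Atp5pb-ps and Cox5b-ps, and the proteasome by Psma5-ps, which had a single peak in the knockout. H2-K2, whose parent H2-K1 is a class I histocompatibility gene, matched the histone pattern H2 by its letters alone. These 7 smaller families held 15 to 22 peaks per list, none enriched, too few to be set against a background of 0.317% to 1.09%.

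For 6 parents, 2 copies held peaks, and over the knockout IP some pairs of copies differed while others did not. The copies of Rpl18 overlapped over the knockout IP, with 0.59 ± 0.88 for Rpl18-ps1 and 0.57 ± 0.45 for Rpl18-ps2 (SD, n = 3). Those of Pisd, a mitochondrial phospholipid enzyme, also overlapped, at 1.44 ± 0.30 for Pisd-ps1 and 1.17 ± 0.29 for Pisd-ps2 (SD, n = 3). Rps10-ps1 had medians over the knockout IP of -0.40, -0.08 and -0.31 in controls 1 to 3. Rps10-ps2 had 3.06, 1.47 and 1.82, and the parent Rps10 had 1.82, 1.62 and 1.10. Over the knockout IP the values of these 2 copies did not overlap, with those of the parent nearer to Rps10-ps2. Over input they did, at 0.48, 0.34 and -0.89 in Rps10-ps1 and 0.87, 0.16 and -0.65 in Rps10-ps2. Each median of these 2 copies rested on 1 to 3 peaks. Rpl9-ps7 (-0.21, 0.30 and 0.58) lay below Rpl9 (0.97, 1.78 and 1.17) in every control, whereas Rpl9-ps6 had 1.30 and 1.21 in controls 2 and 3. Apart from Rpl9-ps6, these copies were picked here, like the further pairs below that are not among the pseudogenes named by rule, after their values were seen.

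Pairs lay on both sides of their parents. Rps13-ps1 had medians over the knockout IP of 2.18, 1.88 and 2.58, against -0.16, 0.26 and 0.70 in Rps13 (difference 1.95 ± 0.37, SD, n = 3), with no knockout peak in the pseudogene and 5 in the parent. Each of these Rps13-ps1 values was 1 peak. Over input Rps13-ps1 lay below Rps13 in every control, at -0.10, -0.72 and 0.01 against 0.19, 0.50 and 0.71 (difference -0.74 ± 0.47, SD, n = 3). Rps18-ps5 lay below its parent over the knockout IP, at -0.10, -0.23 and -0.80 against 1.89, 1.50 and 1.08 in Rps18 (difference -1.87 ± 0.12, SD, n = 3). Rps25-ps1 also lay below its parent there in every control, with 1.86, 0.43 and 0.95 against 3.92, 2.75 and 1.78 in Rps25. Over input, Rpsa-ps10, a copy of the laminin receptor and ribosomal protein gene Rpsa, had 1.27, 0.68 and 0.60 in the controls and -1.72 in the knockout, whereas Rpsa had -0.69, -0.50 and -0.999, and -1.79. The pseudogene was thus above its parent in each control (difference 1.58 ± 0.39, SD, n = 3) and near it in the knockout.

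Atp6v0c-ps2, a copy of the gene for a membrane subunit of the vacuolar proton pump, had its high values over the knockout IP at a single site. The site (chromosome 6, 37805985–37806081, plus strand) had log2 folds over the knockout IP of 3.69, 3.998 and 2.90, and over input of -1.30, -0.68 and -1.60, with no knockout peak. A second site in the same pseudogene (chromosome 6, 37806122–37806228) was called in the knockout and had 0.39, 1.34 and 0.00 there. The high value thus belonged to 1 position and not to the whole pseudogene. Atp6v0c itself had medians over the knockout IP of -0.11, 0.71 and 0.26. Over input the order was the reverse in every control, with medians of -0.55, 0.39 and -0.78 in Atp6v0c-ps2 against 1.77, 0.43 and 0.60 in Atp6v0c.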

How the data were processed

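The data were 7 peak lists on mm10 (per the submitters' processing notes). For each peak the authors gave a log2 fold of the IP against input or the knockout IP and its −log10 p-value; with no header, these units were read from the layout. The deposited −log10 p-value was capped at 400 and was 0 wherever the log2 fold was below 0. Aligner, peak caller and handling of reads with several matches were not given in the sources used here. Inputs had no list of their own.

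Peaks were assigned by midpoint with RefSeq's mm10 gene table, using Python 3.11.15 and pandas 2.3.3. Sites joined peaks of all lists with at least 1 nt of same-strand overlap, and a library's value at a site is its peak with the highest log2 fold. Parents came from the symbol before -ps or -rs, or from a synonym. Libraries were compared by exact permutation tests. The pseudogenes, lists and tests were chosen with earlier results of these data known. Named pseudogenes (34) were the 8 with most sites, 6 each with the highest minimum over input, the highest minimum over the knockout IP and the lowest maximum over the knockout IP across controls, up to 5 with the highest knockout fold at a −log10 p-value of at least 3, up to 2 per family, and any with a reproducible region. Alternatives were other thresholds, assignments, overlaps, references and pair rules, and leaving out each control. The assignment was tested on simulated peaks. Columns of no sample numbered 0.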

Additional observations from a re-analysis of the deposited data

Results flagged for a closer look

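The median log2 fold over input of all pseudogene peaks was above 0 in each control and below it in the knockout (-0.35). At 3 named pseudogenes the median over input was above 0 in every control and below 0 in the knockout, namely Gm13456 (-1.20), Rnu3b-ps1 (-0.28) and Rpsa-ps10 (-1.72 in the knockout). Gm12635 went the other way, with -0.86, -0.47 and -0.40 in the controls and 0.11 in the knockout. Rnu3b-ps1 and Rpsa-ps10 were named for high control values over input, so their control side follows from the choice. Gm13456 was named for high and Gm12635 for low values over the knockout IP, which favours these knockout values. These 4 therefore add no separate evidence to the result for all pseudogene peaks. For all pseudogene peaks the two-sided exact permutation test gave p = 0.25, the smallest that 1 library against 3 allows. The differences at the single pseudogenes were not tested. The median of all autosomal peaks was also lower in the knockout (0.23) than in each control (0.90, 0.60 and 0.60).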

How the results depend on the processing

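At a log2 threshold of 2 instead of 3, the enriched pseudogene peaks over input rose from 0 to 2 in control 1 and to 2 in control 2, and those over the knockout IP in control 2 to 7. At a log2 threshold of 4, those over the knockout IP were 2 in control 1 and 4 in control 3, and at a −log10 p-value of 5 they were 3 and 1. Reproducible regions were 0 under every alternative except enrichment over the knockout IP alone, which gave 3 (H2af-ps2, Gm15459 and Atp6v0c-ps2). As no pseudogene peak was enriched over input, stricter thresholds, overlap or support and leaving out a control could give only 0. Those alternatives therefore did not test this result. That count was 1 to 2 with a control left out, 1 of them without control 2, and 1 (H2af-ps2) with support by all 3 controls, alternatives chosen after seeing the data.

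Without Ppp4r1l-ps, Mx2 and Oas1b, also chosen after seeing the data, control 3 had 4 enriched peaks over the knockout IP, the control share of pseudogene peaks was 0.200% in both comparisons (0.192% in the knockout), and the difference from the autosomal median was -0.55 over input and -0.24 over the knockout IP. With 1 value per pseudogene that difference was -0.47 over input and -0.19 over the knockout IP, so that its sign turned over the knockout IP. Without peaks of −log10 p-value 0 it was -0.22 over input, 0.18 over the knockout IP and -0.10 in the knockout, so that the knockout lay closer to the autosomal median than the controls over input. By the highest peak of each gene, the difference of pseudogene and parent was -1.62 over input, -0.91 over the knockout IP and -1.08 in the knockout. Over the knockout IP it was -0.19 for pairs with at least 2 peaks on each side and -0.23 with parents from -ps symbols alone. Leaving out 1 of 3 controls cannot move a mean by more than its SD, so this alternative did not test the other means. Some small means over the knockout IP changed sign. Among them were Hspd1-ps3 (0.08, and -0.05 without control 3) and Gm12183 (-0.07, and 0.19 without control 1). No paired analysis was possible because the inputs have no list and the knockout shares only number 1 with the controls. Depth is unknown, and 1 knockout library limits every comparison with it.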
